A study of Mus musculus with 2 samples.

Results

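The RUNX genes and Cbfb are 4 genes, Runx1, Runx2, Runx3 and Cbfb, taken by name from the GENCODE annotation of mm10, where they stand among 21938 protein-coding genes. Every accessible region that overlapped one of the gene bodies or the 100 kb on either side of it was taken, which gave 28 of the 20080 regions of the most stringent peak list. ATAC-seq was used to find open chromatin: Tn5 transposase cuts DNA where it is exposed and leaves adapters for sequencing there. The cells were G1E-ER4, a clonal mouse erythroid line (strain C57BL/6J per the labels) derived from Gata1-null cells and carrying a fusion of GATA1 with the hormone-binding part of the estrogen receptor, which estradiol activates. Biological replicates 1 and 2 form the single group, each from 50000 cells held in 10 nM 17β-estradiol for 24 h. Both libraries therefore share the Gata1 loss, the fusion protein and the treatment, no untreated cells were analysed here, and no value below is a change with treatment.

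RUNX proteins bind DNA through the Runt domain at sites with the core TGTGGT, and CBFβ, the product of Cbfb, joins them as a partner that touches no DNA itself and strengthens the binding. RUNX1 is needed for the emergence of blood stem cells and for megakaryocytes and lymphocytes. RUNX2 is known for bone formation, and RUNX3 for T cells, natural killer cells and sensory neurons. Each mammalian Runx gene is transcribed from a distal promoter, P1, and a proximal promoter, P2, whose products differ at the amino terminus. In the mouse embryo the Runx1 P2 promoter is active early and P1 takes over in fetal liver and adult blood cells.

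Runx1 lies on chromosome 16 on the minus strand (ENSMUSG00000022952.17, chr16:92601466-92826149) and has its P1 start 128.821 kb before its P2 start. Runx2 lies on chromosome 17 on the minus strand (ENSMUSG00000039153.16, chr17:44495987-44814797). Runx3 lies on chromosome 4 on the plus strand (ENSMUSG00000070691.10, chr4:135120652-135177990), and Cbfb on chromosome 8 on the plus strand (ENSMUSG00000031885.14, chr8:105170674-105217989). Gene bodies were 224.684 kb long for Runx1, 318.811 kb for Runx2, 57.339 kb for Runx3 and 47.316 kb for Cbfb, so the windows differed in length. The promoter sequences of the start regions that the results turn on are printed here from 250 bases before to 50 bases after the start in RefSeq on GRCm38.p6, read along the gene. They are Runx1 P1 (chr16:92826025-92826324, minus strand), Runx1 P2 (chr16:92697280-92697579, minus strand), Runx2 P1 (chr17:44814578-44814877, minus strand), Runx3 P1 (chr4:135120395-135120694, plus strand) and Cbfb (chr8:105170424-105170723, plus strand). Capitals mark TGTGGT on either strand, read as ACCACA where it lies on the other strand.
Runx1 P1: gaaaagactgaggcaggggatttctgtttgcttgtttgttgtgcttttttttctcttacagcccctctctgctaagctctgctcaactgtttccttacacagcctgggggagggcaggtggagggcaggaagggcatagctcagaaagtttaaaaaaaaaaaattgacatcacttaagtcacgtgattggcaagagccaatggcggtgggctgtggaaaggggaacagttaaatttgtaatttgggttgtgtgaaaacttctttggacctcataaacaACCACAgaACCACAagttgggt
Runx1 P2: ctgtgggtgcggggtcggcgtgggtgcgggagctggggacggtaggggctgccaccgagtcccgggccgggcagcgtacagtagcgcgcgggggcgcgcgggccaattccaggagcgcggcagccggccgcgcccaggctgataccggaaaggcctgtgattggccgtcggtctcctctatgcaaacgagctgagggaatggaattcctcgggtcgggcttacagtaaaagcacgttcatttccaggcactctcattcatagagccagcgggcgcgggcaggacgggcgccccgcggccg
Runx2 P1: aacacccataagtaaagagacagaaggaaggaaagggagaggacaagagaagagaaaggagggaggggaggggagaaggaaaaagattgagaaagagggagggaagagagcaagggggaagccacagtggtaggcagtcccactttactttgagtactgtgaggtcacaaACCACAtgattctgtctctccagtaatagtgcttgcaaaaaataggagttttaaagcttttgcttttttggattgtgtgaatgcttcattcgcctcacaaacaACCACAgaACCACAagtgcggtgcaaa
Runx3 P1: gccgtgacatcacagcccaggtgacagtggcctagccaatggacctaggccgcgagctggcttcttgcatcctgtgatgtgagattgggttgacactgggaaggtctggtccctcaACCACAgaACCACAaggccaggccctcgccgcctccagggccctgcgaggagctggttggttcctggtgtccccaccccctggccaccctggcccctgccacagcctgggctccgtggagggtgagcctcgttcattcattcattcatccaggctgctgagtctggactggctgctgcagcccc
Cbfb: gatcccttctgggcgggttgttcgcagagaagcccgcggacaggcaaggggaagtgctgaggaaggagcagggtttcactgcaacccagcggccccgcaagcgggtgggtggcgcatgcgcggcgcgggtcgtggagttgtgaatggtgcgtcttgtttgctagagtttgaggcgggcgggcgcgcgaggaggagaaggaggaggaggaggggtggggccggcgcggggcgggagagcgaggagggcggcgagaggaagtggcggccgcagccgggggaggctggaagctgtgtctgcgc

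The P1 promoters of the Runx genes share an element. Each holds a pair of the longer RUNX pattern TGTGGTT on the strand opposite to the gene, with first bases 8 apart. The pair begins 27 bases downstream of the RefSeq start in Runx1 P1, 22 bases downstream in Runx2 P1 and 135 bases upstream in Runx3 P1. The RefSeq start of Runx1 P1 (chr16:92826074) differs from the GENCODE start (chr16:92826149), from which distances of regions are given below. Runx1 P2, Runx3 P2 and Cbfb held no TGTGGT in the same window. Among the 32851 promoter windows of RefSeq, 16.8% held TGTGGT, 5.27% held TGTGGTT and 0.0152%, or 5 windows, held the pair. The other windows belonged to Gm16225, which reads across the same bases as Runx3 P1 from the other strand, and to Olfr24, so that the pair stood at 4 genomic positions. The pair was searched for after the single matches had been seen. The P1 pair of Runx1 lay inside an accessible region of the conservative list, and the pairs of Runx2, Runx3 and Olfr24 lay outside every region of the conservative and archived lists. A match to a pattern is a description of the letters and not a measured binding site.

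Base composition also set the start regions apart. Over 1001 bases around the first start, the ratio of observed to expected CpG was 0.31 at Runx1 P1, 0.16 at Runx2 P1 and 0.36 at Runx3 P1, against 0.86 at Runx1 P2, 0.91 at Runx2 P2, 0.95 at Runx3 P2 and 0.93 at Cbfb. The CpG-rich starts thus included both an accessible one at Runx1 P2 and, as described next, those of Runx2 and Runx3 at which no region was listed.

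A region was called a promoter region of a gene where its summit, the position of highest signal, lay within 1 kb of any annotated transcription start site (TSS) of that gene, and distal where it lay farther than that from every TSS of a protein-coding gene. The conservative list holds the peaks that passed an irreproducible discovery rate (IDR) of 0.05 between the true replicates. Runx1 and Cbfb had promoter regions in it and Runx2 and Runx3 had none, while 42.9% of protein-coding genes had one. The same split held in the list of pooled pseudoreplicates called optimal, where the background was 43.3% of genes, in the list of replicate 1, where it was 39.2%, and in that of replicate 2, where it was 40.4%. It held too in the longer lists of replicated peaks and of archived replicated peaks, with backgrounds of 47.8% and 56.6%. The replicated list also holds peaks above that IDR.

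**Figure D1:**
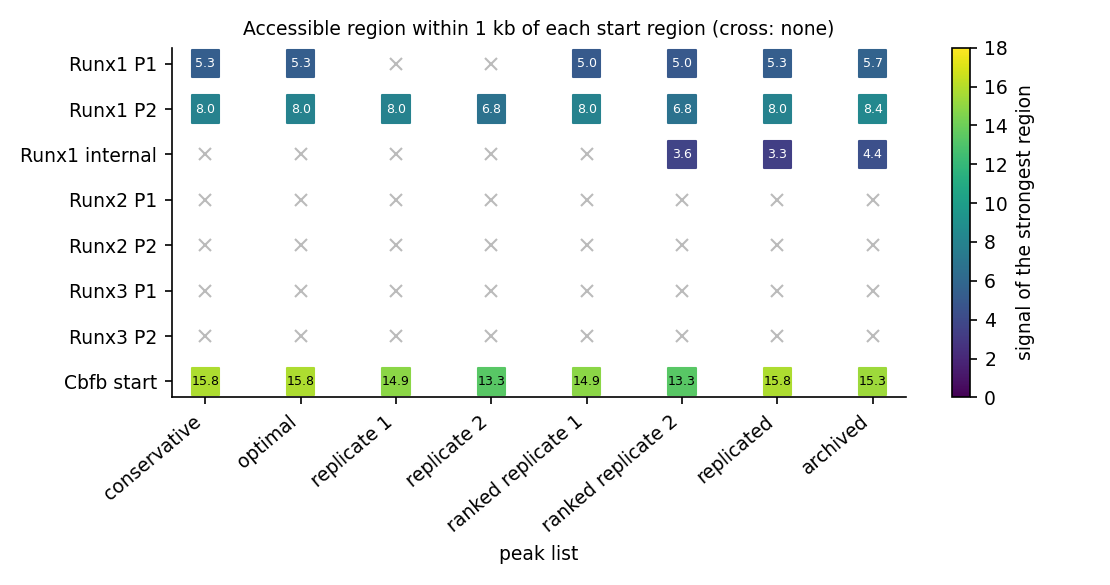
Signal of the strongest accessible region within 1 kb of each start region (rows) in each peak list (columns), as the authors' value per region, with a cross where no region was listed. Runx1 P2 and Cbfb had a region in every list shown, Runx1 P1 had none in the libraries' own thresholded lists, and Runx2 and Runx3 had none in any list shown.

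At Runx1, P1 and P2 were both accessible and differed in strength. The P2 region (chr16:92697220-92697610, summit 76 bp upstream of the start) had a signal of 7.99 in the pooled data, 7.96 in replicate 1 and 6.81 in replicate 2, and each library's own thresholded list held it. The P1 region (chr16:92825975-92826295, summit 4 bp upstream of the start) had a signal of 5.31, with 5.04 in replicate 1 and 4.96 in replicate 2. P2 was thus above P1 in both libraries. The signal is the authors' enrichment value per peak, with no scaling stated by the labels or headers, and the read depth is unknown. The P1 region passed the threshold in the comparison of the replicates, with a global IDR of 0.00409, but missed it within each library, at 0.141 in replicate 1 and 0.0514 in replicate 2. Both values were low among accessible promoters: 7.79% of the 9406 genes with a promoter region had a lower signal than Runx1 at its stronger start, and the median over promoter regions was 12.7. The third annotated start of Runx1, downstream of P2, had no region in the conservative list. Weak regions lay before it in the longer lists, 680 bp upstream in the replicated list with a signal of 3.33 and 622 bp upstream in the archived list with a signal of 4.38, so that both were also within 1 kb of P2.

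Cbfb had the strongest promoter of the 4 genes. Its region (chr8:105170343-105170920, summit 147 bp upstream of the start) had a signal of 15.8, with 14.9 in replicate 1 and 13.3 in replicate 2, and both libraries called it. Of genes with a promoter region, 64.6% had a lower signal. Runx2 had no region within 1 kb of P1 or P2 in any of the 13 deposited lists, which include the unthresholded ranked lists of each library. The peaks nearest to its starts were weak ones of the archived list, which lay 7.51 kb downstream and 10.7 kb upstream of P1 with signals of 3.66 and 2.61. Runx3 likewise had none at P1 or P2 in the 13 lists, and the nearest archived region lay 2.65 kb downstream of P1 with a signal of 3.66. An absent peak means only that none was listed at this depth, which is unknown.

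Away from the promoters, Runx1 had the most distal regions of the 4 genes. In the conservative list it had 10 regions within 100 kb, of which 2 were its own promoters, 8 were distal and none was the promoter of another gene. Of all protein-coding genes, 97.3% had fewer distal regions within 100 kb than Runx1 and 324 had more. Among the 998 genes of at least 200 kb, 95.8% had fewer. Runx3 had 3 distal regions (71.1% of genes had fewer), Cbfb had 2 (56.9%), and Runx2, the longest of the members, had 0, as did 38.0% of all genes, whose median was 1 and mean 1.84. Over the 4 genes the conservative list held 13 distal regions, while the own list of replicate 1 held 8 and that of replicate 2 held 12.

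**Figure D2:**
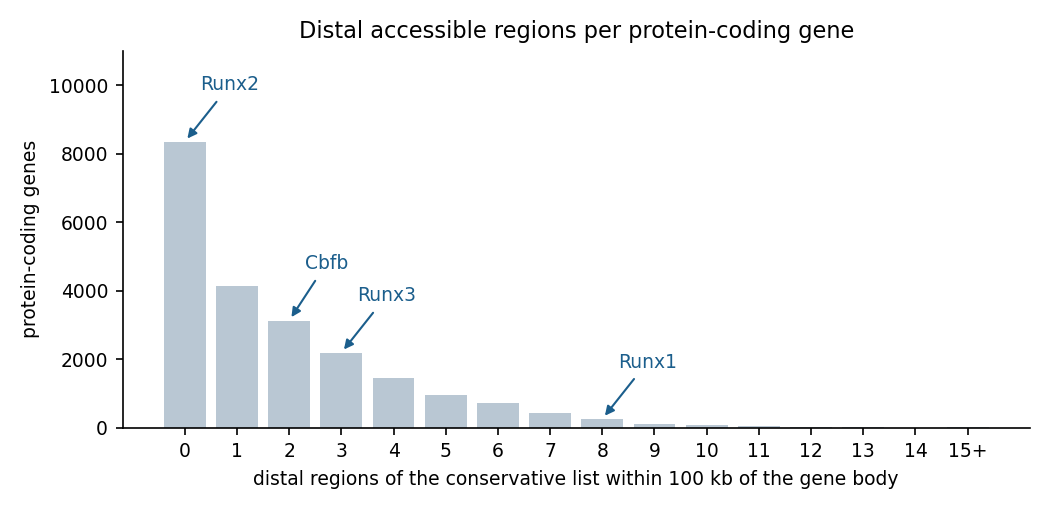
Number of protein-coding genes (y axis) by the count of distal regions of the conservative list within 100 kb of the gene body (x axis), with arrows at the members. Runx1 stands at 8 in the thin upper end, while Runx2 is in the most common class, 0.

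**Figure D3:**
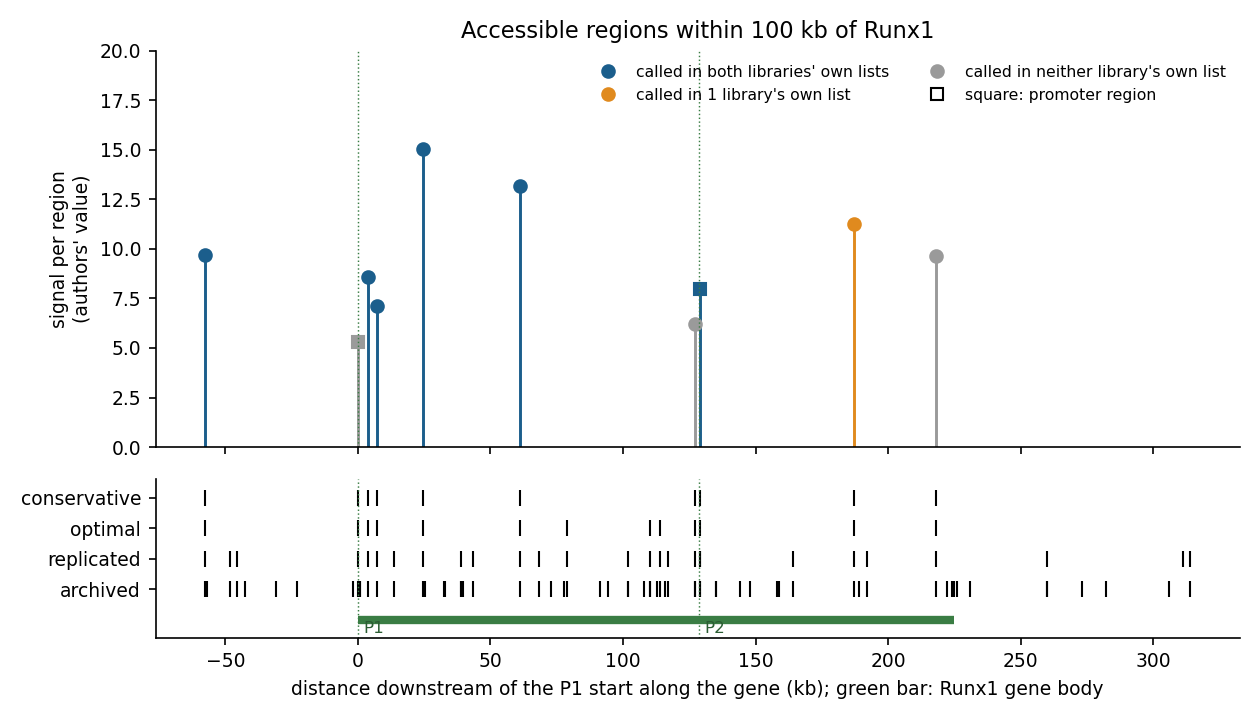
Upper panel, signal of each region of the conservative list within 100 kb of Runx1 (y axis) by its distance downstream of the P1 start (x axis, kb), coloured by the libraries that called it. Lower panel, positions of the regions in 4 lists above the gene body, with 5 distal regions of the conservative list between P1 and P2.

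Of the 8 distal regions of Runx1, 5 lay between P1 and P2, 2 lay in introns beyond P2 and 1 lay upstream of the gene. The strongest of them (chr16:92801550-92802211) lay in the intron 24.4 kb downstream of P1. It had a signal of 15.04, with 12.9 in replicate 1 and 13.5 in replicate 2, and 78.5% of all regions of the list had a lower one. An intronic Runx1 enhancer active in blood stem cells has been described at about this distance from P1, and whether the region is that enhancer was not tested. The next strongest (chr16:92764745-92765255) lay 61.2 kb downstream of P1, with a signal of 13.2, 10.2 in replicate 1 and 11.7 in replicate 2. Both libraries called both of these regions, and both stood above the Runx1 promoters in each library.

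Close to P1, regions lay 3.87 kb downstream (chr16:92822005-92822661) and 7.08 kb downstream (chr16:92818912-92819415). The nearer one had a signal of 8.58, with 8.54 in replicate 1 and 7.72 in replicate 2. The farther one had 7.14, with 6.81 in replicate 1 and 7.15 in replicate 2. Both were called in each library, unlike the P1 region beside them. The region upstream of the gene (chr16:92883704-92884288, 57.7 kb before P1) had a signal of 9.68, with 9.21 in replicate 1 and 9.58 in replicate 2, and was also called in each.

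The remaining distal regions of Runx1 were not in the own lists of both libraries, although they passed the threshold between the true replicates. Their global IDR in that comparison was 0.00351 at 1.48 kb upstream of P2. It was 0.00189 at 58.1 kb and 0.00578 at 89.0 kb downstream of P2. A region 1.48 kb upstream of P2 (chr16:92698685-92698935) had a signal of 6.22, with 5.63 in replicate 1 and 5.84 in replicate 2, and neither library's own list held it. Past P2, a region 58.1 kb downstream of that start (chr16:92639122-92639398) had 11.2, with 8.70 in replicate 1 and 9.89 in replicate 2, and replicate 2 alone called it. The region 89.0 kb downstream of P2 (chr16:92608209-92608476) had 9.62, with 7.94 in replicate 1 and 7.52 in replicate 2, and neither called it. These 3 regions and the P1 region were the ones of Runx1 that missed the threshold in at least 1 library.

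The optimal list added 3 regions to Runx1, all between the promoters, at 15.02, 18.4 and 49.9 kb upstream of P2. Their global IDR between the true replicates was 0.127, 0.120 and 0.513, above the threshold. The one at 18.4 kb (chr16:92715541-92716097, signal 7.498) was nonetheless in the own lists of both libraries. The longer lists placed more regions in the same interval. The replicated list held 27 regions in the Runx1 window, 14 of them distal ones between P1 and P2, and the archived list held 64, with 29 there. The median signal of these regions was 9.10 in the conservative list, 6.07 in the replicated list and 3.66 in the archived list. Whether the archived list was made from the same alignments as the others is not known, so its counts and signals are given beside theirs without a comparison.

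The sequences around the summits of the distal Runx1 regions that both libraries called are given here, together with the distal region of Runx3 that both called. They carry some of the RUNX and GATA matches counted next. The other distal regions with such matches were not in both own lists and are not printed. Each printed sequence is the summit base with the 100 bases on either side on GRCm38.p6, read along the gene. They stand at chr16:92883783-92883983, chr16:92822183-92822383, chr16:92818966-92819166, chr16:92801668-92801868 and chr16:92764871-92765071, all minus strand, and at chr4:135206391-135206591, plus strand. Capitals mark the RUNX core TGTGGT and, for GATA, either AGATAA or TGATAA, on both strands.
Runx1 57.7 kb upstream of P1: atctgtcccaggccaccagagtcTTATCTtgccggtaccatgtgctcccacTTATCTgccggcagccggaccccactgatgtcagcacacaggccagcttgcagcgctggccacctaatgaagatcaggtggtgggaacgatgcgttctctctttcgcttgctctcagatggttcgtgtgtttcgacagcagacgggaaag
Runx1 3.87 kb downstream of P1: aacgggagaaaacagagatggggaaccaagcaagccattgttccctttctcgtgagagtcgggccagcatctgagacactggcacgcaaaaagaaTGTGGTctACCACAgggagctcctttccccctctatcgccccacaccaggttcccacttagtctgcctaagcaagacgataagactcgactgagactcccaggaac
Runx1 7.08 kb downstream of P1: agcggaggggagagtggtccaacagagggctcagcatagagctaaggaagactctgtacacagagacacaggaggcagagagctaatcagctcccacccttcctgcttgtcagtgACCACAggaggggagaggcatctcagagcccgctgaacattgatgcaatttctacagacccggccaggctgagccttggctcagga
Runx1 24.4 kb downstream of P1: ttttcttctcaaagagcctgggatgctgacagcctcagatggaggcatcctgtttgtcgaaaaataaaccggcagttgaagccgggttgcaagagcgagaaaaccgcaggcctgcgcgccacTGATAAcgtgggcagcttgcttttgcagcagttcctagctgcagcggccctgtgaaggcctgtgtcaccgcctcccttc
Runx1 61.2 kb downstream of P1: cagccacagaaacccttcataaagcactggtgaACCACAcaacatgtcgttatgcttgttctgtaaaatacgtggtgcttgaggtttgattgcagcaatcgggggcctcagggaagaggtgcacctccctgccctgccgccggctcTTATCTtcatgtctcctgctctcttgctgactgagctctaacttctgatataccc
Runx3 54.0 kb downstream of P2: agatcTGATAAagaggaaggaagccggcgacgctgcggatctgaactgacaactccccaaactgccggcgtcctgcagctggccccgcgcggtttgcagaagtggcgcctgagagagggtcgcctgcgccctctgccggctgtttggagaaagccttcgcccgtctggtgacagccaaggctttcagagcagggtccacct

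The share of distal regions with the RUNX core near the summit varied with the window and the list. Of the 13 distal regions of the 4 genes, 7 (53.8%, exact 95% binomial interval 25.1% to 80.8%, counting error only) held TGTGGT within the 100 bases on either side of the summit, against 21.6% of the 10029 distal regions of the whole list. Regions of one gene share their locus and were not treated as replicates, so no test was made. At Runx1, 5 of the 8 held it, and the region 3.87 kb downstream of P1 held a pair facing opposite ways, one 3 bp from the summit and one across it. The region 61.2 kb downstream of P1 held both a RUNX and a GATA match, the region 24.4 kb downstream held a GATA match 22 bp from its summit and no TGTGGT, and the upstream region held 2 GATA matches. At Runx3, the region 54.0 kb downstream of P2 held a GATA match and no TGTGGT, while the region 86.6 kb downstream held a TGTGGT 62 bp from its summit and 2 GATA matches. At Cbfb, the region 49.5 kb upstream held a TGTGGT 14 bp from its summit.

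Within the 50 bases on either side of the summit, 4 of the 13 held TGTGGT (30.8%), against 13.2% of all distal regions, and over the whole region 7 of the 13 held it (53.8%), against 35.9%. With the longer TGTGGTT, 2 of the 13 held a match (15.4%), against 8.33% of all distal regions. With either TGTGGT or TGCGGT, 8 of the 13 held one (61.5%), against 25.0%. In the replicated list 15 of 39 held TGTGGT (38.5%), against 21.7%. In the own list of replicate 1, 3 of 8 held it (37.5%). GATA matches were in 5 of the 13 (38.5%), against 38.4% of all distal regions, nearly the same share in the conservative list. The GATA share also varied with the list. It was 5 of 8 (62.5%) against 41.0% in the own list of replicate 1 and 7 of 12 (58.3%) against 39.1% in that of replicate 2. In the replicated list it was 18 of 39 (46.2%), against 37.8%. The composite of an E-box end and a GATA site, CTG then 7 or 8 bases then GATAA, was in 0 of the 13, a count that allows a share of up to 23.1% at 3 counts, against 4.93%. ETS matches (AGGAAG or CGGAAG) were in 3 (23.1%), against 36.6%, and the CTCF pattern was in 3 (23.1%), against 18.4%. KLF matches (CCNCNCCC) were in 2 (15.4%), against 33.4%, NF-Y matches (CCAAT) in 2 (15.4%), against 23.5%, and AP-1 matches (TGANTCA) in 1 (7.69%), against 11.2%. All patterns were searched on both strands, and overlapping matches were counted.

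At Runx2 the only regions of the conservative list were promoter regions of another gene. Supt3, which encodes a subunit of the SAGA coactivator complex, starts inside a Runx2 intron. Its regions (chr17:44776687-44777404 and chr17:44777480-44777843) lay 37.8 and 37.2 kb downstream of Runx2 P1 and had signals of 9.10 and 7.73. The first had 7.90 in replicate 1 and 8.53 in replicate 2 and was in both own lists, and the second had 7.66 in replicate 1 and 6.59 in replicate 2 and was in that of replicate 1 alone. The replicated list added a weak region 31.5 kb downstream of P1 (signal 3.51) and one 13.3 kb upstream of it (signal 5.74), with a global IDR of 0.513 and 0.151. In the archived list Runx2 had 11 regions in a window of 518.811 kb, against 64 for Runx1 in one of 424.684 kb.

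At Runx3 the gene body itself held no region of the conservative or replicated lists, and the archived list held 1 there. Its 3 distal regions lay outside the gene. The region 54.0 kb downstream of P2 (chr4:135206192-135206690) had a signal of 12.8, with 11.2 in replicate 1 and 7.64 in replicate 2, and was in both own lists although its signal differed more between the libraries than that of any Runx1 region on the log2 scale. The region 86.6 kb downstream of P2 (chr4:135238956-135239539) lay in an intron of Clic4, had 8.28, with 5.76 in replicate 1 and 7.95 in replicate 2, and was called in replicate 2 alone. The region 59.2 kb upstream of P1 (chr4:135061109-135061719) had 6.95, with 6.68 in replicate 1 and 7.28 in replicate 2, and neither own list held it. Between the true replicates the order differed. The global IDR was 0.0359 at 54.0 kb downstream, 0.0295 at 86.6 kb downstream and 0.00800 at 59.2 kb upstream. The promoter of Clic4, a chloride intracellular channel family gene at the edge of the window, had 16.0, with 12.8 in replicate 1 and 15.9 in replicate 2. A region 53.7 kb upstream of P1 in the replicated list had a higher signal, 8.29, than the retained neighbour at 59.2 kb, but a global IDR of 0.214.

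The window of Cbfb was crowded with other genes. Of its 12 regions, 1 was the Cbfb promoter, 9 were promoter regions of other genes and 2 were distal. The neighbours were D230025D16Rik, B3gnt9 with 3 regions, Fbxl8 and Tradd, which share 2 regions, Nol3, 4931428F04Rik and E2f4. Tradd encodes an adaptor of the TNF receptor and E2f4 a cell cycle repressor. Their signals ran from 5.94 at Fbxl8 and Tradd to 17.6 at 4931428F04Rik. No region had its summit inside the Cbfb gene body in the conservative list, although the promoter region reached past the start. The distal regions were one in an exon of 4931428F04Rik (chr8:105283141-105283485, signal 16.0, 11.6 in replicate 1 and 14.2 in replicate 2, called in both) and one 49.5 kb upstream of Cbfb (chr8:105121011-105121294, signal 8.93, 6.35 in replicate 1 and 8.62 in replicate 2, called in replicate 2 alone). The optimal list lacked the region 49.5 kb upstream, whose global IDR within replicate 1 was 0.482. It held instead a distal region 129 kb downstream of the Cbfb start. Which gene a distal region serves cannot be read from distance, and in this window other starts lie nearer than that of Cbfb.

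**Figure D4:**
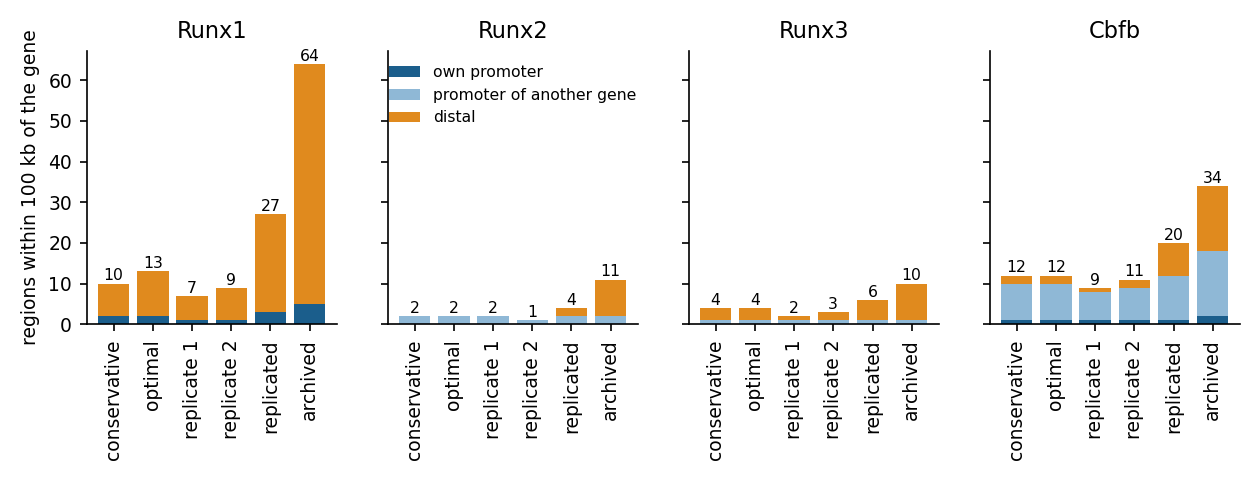
Number of regions within 100 kb of each gene (y axis) in 6 peak lists (x axis), split into the gene's own promoter, promoters of other genes and distal regions, with totals above the bars. Runx1 regions are mostly distal in each list, Cbfb regions are mostly promoters of other genes in the conservative list, and Runx2 and Runx3 have no region at their own promoters.

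Across the 4 windows, agreement between the libraries was close to that of the whole list. Of the 28 regions, 18 (64.3%, exact binomial interval 44.1% to 81.4%, counting error only) were in the own lists of both libraries, against 60.7% of all regions, where shared means an overlap of at least 50% of the shorter region. A further 4 were in that of replicate 2 alone, 1 in that of replicate 1 alone and 5 in neither. Distal regions of the members were in both lists in 7 of 13 cases (53.8%), against 42.6% of all distal regions. Every one of the 28 was in the pseudoreplicated lists of both libraries, which carry no IDR threshold. The same share over all regions was not computed, so no trait of these windows can be read from that count. Signals were higher in replicate 2 at 20 of the 28 regions, with a median log2 ratio of replicate 2 to replicate 1 of 0.09 between their separately made lists, and 58.9% of all regions with both values were higher there, with a median of 0.05. The ratio ran from -0.23 to 0.20 at Runx1 and from -0.16 to 0.70 at Cbfb. The widest gaps at Cbfb and Runx3 were 6.91 in replicate 1 and 11.3 in replicate 2 at the E2f4 promoter, and the region 54.0 kb downstream of Runx3 P2.

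**Figure D5:**
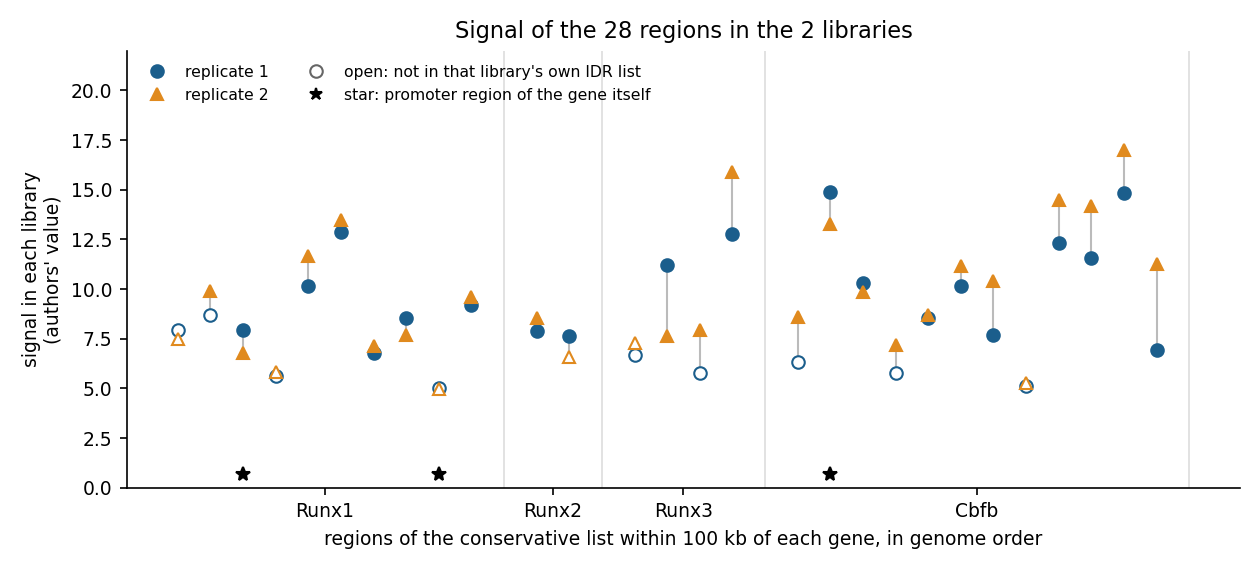
Signal of each of the 28 regions of the conservative list (x axis, in genome order within each gene) in replicate 1 (circles) and replicate 2 (triangles), with open symbols where that library's own IDR list lacked the region and stars at a gene's own promoter. The libraries lie close together at Runx1 and farther apart at some regions of Runx3 and Cbfb.

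Genes whose products work with RUNX proteins mostly had accessible promoters. In a list of 20 partners, 15 had a promoter region in the conservative list (75.0%), against 42.9% of all protein-coding genes. They were Tle3 and Tle4, corepressors of the Groucho family, Cbfa2t2 and Cbfa2t3, of the ETO family, the acetyltransferases Ep300, Crebbp and Kat6a, Sin3a, Hdac1 and Hdac3 of deacetylase complexes, the methyltransferases Prmt1, Kmt2a and Suv39h1, the remodeller Smarca4, and the kinase Hipk2. The strongest were Cbfa2t2 at 23.9, Hdac1 at 17.8, Hdac3 at 17.4, Suv39h1 at 16.7 and Smarca4 at 16.0. Tle1, Tle2, Aes, Runx1t1 and Ets1 had none, of which Aes had one in the replicated and archived lists. Each library's own list held 12 of the 20, against 39.2% of all protein-coding genes in replicate 1 and 40.4% in replicate 2. Neither own list held Tle3 or Hipk2, and the optimal list also lacked Hipk2. Several of these genes act in most cell types, and the list was not compared with others.

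Among 17 protein-coding genes described as RUNX1 targets in blood, 6 had a promoter region (35.3%), against 42.9% of all protein-coding genes. They were Nfe2 at 11.98, Itga2b at 10.6, Gp1ba at 9.07, Spi1 at 8.79, Pf4 at 8.36 and, below these, Rag1. Nfe2 is a factor of erythroid cells and megakaryocytes, Itga2b, Gp1ba and Pf4 are platelet genes, Spi1 encodes the myeloid factor PU.1, and Rag1 acts in lymphocyte receptor rearrangement. Those without one included Csf1r, Csf2, Il3, Mpo, Elane, Myl9, Gfi1, Gfi1b, Cebpa and Cebpe, of which Csf2 and Gfi1b had one in the replicated list and Cebpa one in the archived list. The list of replicate 1 held 4 of the 17, lacking Pf4 and Rag1, against 39.2% of all protein-coding genes. That of replicate 2 held 6, against 40.4%. As a check of the labelled cell type, 8 of 9 erythroid markers had a promoter region in the conservative list, all but Alas2, and 0 of 5 markers of T cells, B cells, myeloid cells, liver and muscle did. The check rests on the markers chosen, since the myeloid Spi1 and the lymphocyte gene Rag1 above did have one.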

How the data were processed

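ATAC-seq was done on 2 libraries of 1 group. Per the labels, coordinates are on mm10. The sources used here do not give the aligner, the peak caller, any shift of read ends or a version. The authors deposited 13 narrowPeak lists. Their signal is the deposited enrichment value per peak, used mainly within a list. Where signals of replicates or lists are set side by side, whether their scaling is the same is not known. The deposited −log10 p of the peaks was carried along and not tested, and the deposited score of the ranked lists, −log10 of the global IDR, gave the IDR. Read depth is unknown, and the libraries' own lists held 14012 and 15564 regions. In 2 pooled ranked lists, 8 columns of values of unnamed replicates were not used.

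Overlapping peaks were merged with Python 3.11.15, the strongest summit standing for the region. Starts and genes came from GENCODE M21, promoter sequences from RefSeq GRCm38.p6. Merging, windows and pattern searches were tested on simulated data. Intervals are exact Clopper-Pearson intervals from SciPy. No test between groups was possible.

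The members and lists were chosen with earlier results of these data known. Named were all members with their regions, genes with promoter regions in the windows, and the lists' genes, with signals for the 5 strongest. A gene of the target list is not reported here by name. Alternatives were other lists, each library alone, a stricter signal, unmerged peaks, smaller windows, other promoter limits and other motif patterns or widths.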

Additional observations from a re-analysis of the deposited data

How the results depend on the processing

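Against the conservative list, the replicated list raised the regions within 100 kb of the members to 57 and the distal ones to 39, and the archived list gave 119 and 93, with 7 promoter regions of members. Regions above the median signal numbered 13, of which 5 were distal and 1 a member promoter, and 1 RUNX1 target had a promoter region above it. The share of all genes with a promoter region above that median was not computed. A 20 kb window left 13 regions, 7 of them distal. With 1 library's own list in place of both, distal regions numbered 8 in replicate 1 and 12 in replicate 2, and regions within 100 kb numbered 20 to 24. The distal share with TGTGGT was then 37.5% in replicate 1, against 21.7% of all its distal regions, and 50% in replicate 2, against 21.8%. The pattern TGTGGTT gave 15.4%. Without the IDR threshold in each library, 100% of the regions within 100 kb of the members were in both. The same share over all regions was not computed. The other recomputed totals stayed within 1.5 times the main count or, for shares, within its interval. That interval is wide, 25.1% to 80.8% for TGTGGT, so a fall to 30.8% within 50 bases of the summit counts as inside it. The cause of the moves was not tested. Among 132 values of single genes, 38 moved by more than 1.5 times. Depth is unknown, so an absent peak sets no limit on accessibility. No paired analysis was possible because both libraries belong to 1 group.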
